A study of Mus musculus with 8 samples.

Results

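The UDP-glucuronosyltransferases (UGT) and the cytosolic sulfotransferases (SULT) were examined in livers of mice with diet-induced metabolic dysfunction-associated steatohepatitis (MASH) that overexpressed AGXT, the peroxisomal enzyme that turns glyoxylate into glycine. Members were the protein-coding genes of the mouse annotation (GENCODE M21, genome build GRCm38) whose symbol starts with Ugt1, Ugt2 or Ugt3 or with Sult1 to Sult6. This gave 42 of the 52636 genes counted, 21 UGT genes (9 Ugt1a, 3 Ugt2a, 7 Ugt2b and 2 Ugt3a) and 21 SULT genes. A further 6 rows with Sult symbols were pseudogenes and were left out, and they were at 0 in all 8 mice.

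All 8 animals were wild-type C57BL/6J males, given an adeno-associated virus of serotype 8 (AAV8) at 7 weeks of age and kept on a diet high in fat, fructose and cholesterol (the MASH diet) from 8 weeks of age for 24 weeks. The virus carried GFP (AAV8-GFP, mice 303, 311, 314 and 315) or the human AGXT gene (AAV8-AGXT, mice 308, 309, 316 and 319), both under the TBG promoter, which is active in hepatocytes. Bulk liver RNA of each mouse gave 1 library, with n = 4 per group and between 17095433 and 28780140 read pairs counted on genes. No mouse on another diet is part of the comparison. The mouse Agxt row, which does not hold the human transgene as such, was at 164 ± 15.8 CPM (a gene's share of the read pairs of its library, scaled by the TMM factor) with AAV8-GFP and at 305 ± 98.3 CPM with AAV8-AGXT (SD, n = 4 each), with no overlap between the groups.

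UGT enzymes sit in the endoplasmic reticulum and transfer a sugar, mostly glucuronic acid from UDP-glucuronic acid, to lipid-soluble compounds such as bilirubin, steroids, bile acids and drugs. SULT enzymes sit in the cytosol and transfer a sulfonate group from the donor PAPS to many of the same compounds. Both kinds of conjugate are more soluble in water and leave the hepatocyte through transporters into bile or blood, and the liver is a main site of both reactions.

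The genes lie in clusters of close copies, which set what a read count of a single gene can mean. The 9 Ugt1a genes form 1 locus of 164.6 kb on the plus strand (chr1:88055388-88220002, GRCm38). Each Ugt1a gene starts at a different first exon, and all of them are spliced to the same exons downstream. The junction of the own first exon (last 45 bases, lower case) with the shared second exon (first 45 bases, capitals) shows this for the 5 Ugt1a genes that were tested; the shared part is at chr1:88215044-88215088 (plus strand), and the own part of Ugt1a1 is at chr1:88212827-88212871.
Ugt1a9: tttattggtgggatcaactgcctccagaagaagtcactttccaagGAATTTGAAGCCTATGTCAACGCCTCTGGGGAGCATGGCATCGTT
Ugt1a6b: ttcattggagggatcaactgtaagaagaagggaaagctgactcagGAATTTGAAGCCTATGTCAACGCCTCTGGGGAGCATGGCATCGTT
Ugt1a6a: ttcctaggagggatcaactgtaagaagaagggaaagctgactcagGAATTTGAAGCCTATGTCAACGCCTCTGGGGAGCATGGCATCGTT
Ugt1a5: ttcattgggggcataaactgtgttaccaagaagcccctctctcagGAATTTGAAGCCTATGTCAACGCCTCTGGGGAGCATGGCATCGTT
Ugt1a1: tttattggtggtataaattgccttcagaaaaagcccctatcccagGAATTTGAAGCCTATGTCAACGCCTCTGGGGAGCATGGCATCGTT
The part in capitals is the same in every line, so a read inside it cannot be given to a single Ugt1a gene, and a counter that discards ambiguous reads drops it. Between 39.4% and 49.7% of the annotated exon bases of a Ugt1a gene belonged to that gene alone on its strand. On the opposite strand Gm20528, which was at 0 counts in all 8 mice, overlapped 922 exon bases of Ugt1a1, 534 of Ugt1a10 and 394 of each of the others. The strand setting of the counting is not given in the sources used here, and without strand 385 of the 2224 exon bases of Ugt1a1 would be its own in place of 913, and 809 in place of 949 for Ugt1a10. Counts of Ugt1a genes are therefore counts on their own bases, and levels per kilobase below use own bases on the same strand only. Own bases are own by position, and their sequence can recur in another Ugt1a gene. The own part printed for Ugt1a5 is the same as the matching part of Ugt1a2, and those of Ugt1a6a and Ugt1a6b differ at few bases. For Ugt1a1, Ugt1a5, Ugt1a6b and Ugt1a9 the own bases were as many as those of the first exon. Ugt1a6a had 2142 own bases, but every stretch of 67 bases (a trimmed read) of its longest coding transcript also occurred in another gene, among them Ugt1a7c. The line printed above for Ugt1a6a comes from another of its transcripts, which was not searched. For the longest coding transcript of Ugt1a6b, 76.9% of such stretches occurred in another gene.

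**Figure D1:**
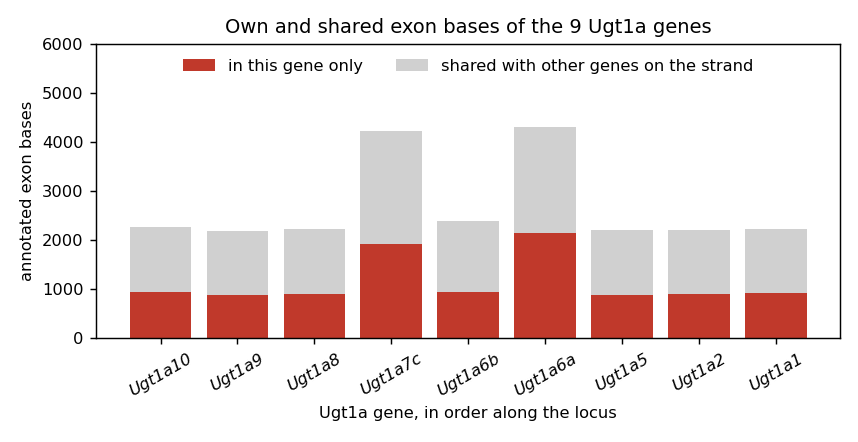
Annotated exon bases (y axis) of the 9 Ugt1a genes in their order along the locus (x axis), split into bases of that gene only (red) and bases shared with other Ugt1a genes on the same strand (grey). The shared part was the larger in all 9 genes, and Ugt1a6a had the largest own share, 49.7%. Its longest coding transcript, the only one searched, recurs in other genes in every stretch of 67 bases.

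The Ugt2b genes have separate exons, but some are near copies of each other. Coding sequences of Ugt2b5 and Ugt2b38 were 97.0% identical over 1590 bases, and those of Ugt2b5 and Ugt2b37 were 94.7% identical. Their first 120 coding bases, with the position at which they differ in capitals, show how little there is to tell them apart.
Ugt2b5: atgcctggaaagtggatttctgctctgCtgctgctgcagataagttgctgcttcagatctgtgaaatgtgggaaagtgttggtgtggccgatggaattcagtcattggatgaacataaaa
Ugt2b37: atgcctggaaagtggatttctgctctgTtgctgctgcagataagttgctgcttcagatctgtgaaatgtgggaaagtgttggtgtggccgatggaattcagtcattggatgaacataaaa
Ugt2b38: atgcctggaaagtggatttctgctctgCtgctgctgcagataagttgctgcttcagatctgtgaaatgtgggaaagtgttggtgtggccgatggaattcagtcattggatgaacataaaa
Windows of 67 bases, the length of a read after trimming, were found word for word in another gene for 33.0% of the Ugt2b5 transcript, 30.1% of the Ugt2b38 transcript and 8.97% of the Ugt2b37 transcript. Read pairs that align equally well to more than 1 of these genes are in none of the gene counts. The counts of the 3 genes are therefore partial, and so is their sum, which is given with the family sums. Their levels per kilobase are over all of their exon bases, shared stretches included.

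The Sult2a genes form a cluster of 8 genes over 870.3 kb of chromosome 7. Sult2a8, which turned out to carry most of the Sult2a counts, is distinct in sequence from the other Sult2a genes. In the first 67 coding bases, set side by side from the start codon without gaps, Sult2a7 differed from it at 29 positions and Sult2a1 at 28 (capitals mark the bases that differ from Sult2a8).
Sult2a8: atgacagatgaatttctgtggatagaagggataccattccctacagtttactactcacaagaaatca
Sult2a7: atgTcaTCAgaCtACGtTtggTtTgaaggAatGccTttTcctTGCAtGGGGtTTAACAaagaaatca
Sult2a1: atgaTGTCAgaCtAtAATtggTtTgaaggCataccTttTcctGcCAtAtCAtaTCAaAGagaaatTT
No window of 67 bases of the Sult2a8 transcript occurred in a transcript of another gene. For Sult2a1 and Sult2a2 the shared parts were 23.3% and 51.4% of the windows.

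Of the 42 members, 23 had enough counts to be tested (15 UGT and 8 SULT genes) in an edgeR quasi-likelihood fit over 15248 genes. At an adjusted p under 0.05 (Benjamini-Hochberg over all 15248 genes), 4 members were higher in AAV8-AGXT livers: Sult2a8, Ugt2a3, Ugt1a1 and Sult1b1. No member was lower. Over all tested genes, 2.45% were higher and 1.90% were lower by the same rule. Of the 23 tested members, none was lower in edgeR at an unadjusted p under 0.05 either, against 13 that were higher. Over all tested genes, 13.5% were higher and 12.6% lower at that unadjusted threshold. Neither DESeq2 nor limma-voom called a member lower. The log2 fold change was positive for 22 of 23 tested members, with a median of 0.65 over the members and 0.02 over all tested genes. In a fit without the filter on low counts it was positive for 25 of 32 members, with a median of 0.54. The members added there had few counts. Since many members lie in clusters, share exons or respond to the same receptors, the 23 values are not independent of each other.

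**Figure D2:**
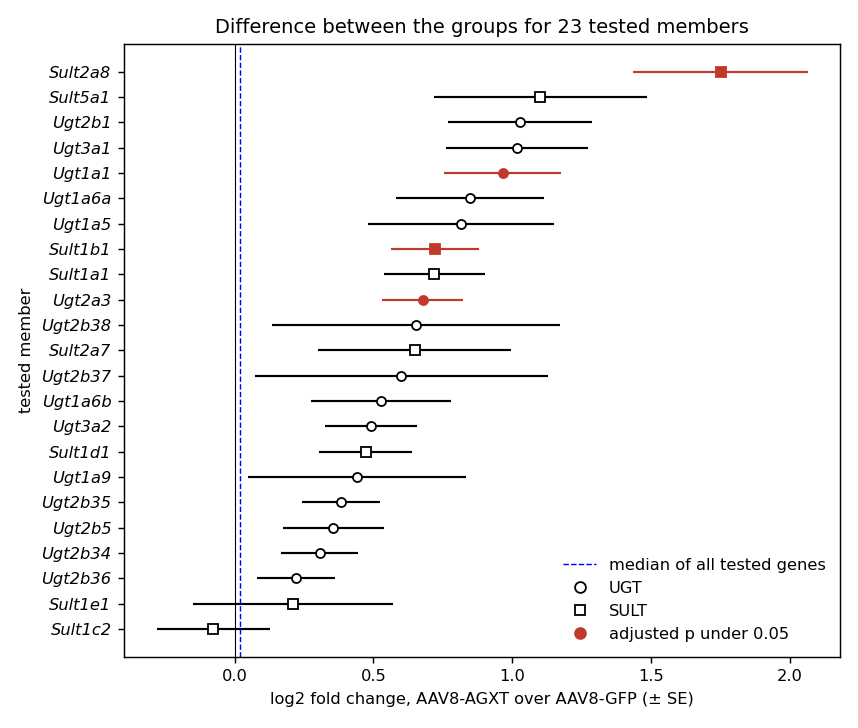
Log2 fold change of AAV8-AGXT over AAV8-GFP (x axis) with its SE for the 23 tested members (y axis), UGT genes as circles and SULT genes as squares, red where the adjusted p was under 0.05. All but Sult1c2 lie to the right of 0 and of the dashed median of all tested genes, and Sult2a8 lies farthest to the right at 1.75.

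The calls rest on few mice. Leaving out 1 mouse at a time and refitting all genes gave between 0 and 4 called members. Without mouse 311, 314, 308 or 319 no member was called, and without mouse 303 only Sult2a8 was. Without mouse 315 the 4 called members were Sult2a8, Ugt2a3, Ugt2b1 and Ugt3a1, and without 309 and without 316 there were 3. Over all tested genes the number called higher also fell, from 374 to 2 without mouse 311, to 11 without mouse 314, to 12 without mouse 319, to 86 without mouse 308 and to 114 without mouse 303. All 4 called members kept a positive log2 fold change in all 8 refits. Their groups did not overlap, so leaving out 1 mouse could hardly turn the sign. By the DESeq2 Wald test 10 of 25 members were higher (6.59% of all genes tested by DESeq2), the same 4 and Sult1a1, Sult5a1, Ugt1a6a, Ugt2b1, Ugt3a1 and Ugt3a2.

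In 5 members every AAV8-AGXT mouse was above every AAV8-GFP mouse, the 4 called genes and Sult5a1. All tested genes had this pattern in 8.93% of cases, and the opposite one in 7.63%, which no member showed. The mice differed within groups in a shared way. Mouse 311 had the lowest level of the 8 mice in 11 of the 23 tested members and mouse 314 in 7, both of them AAV8-GFP mice. Mouse 308 had the highest level in 10 members and mouse 309 in 7. Mouse 315 was the highest of the AAV8-GFP mice in 13 members.

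**Figure D3:**
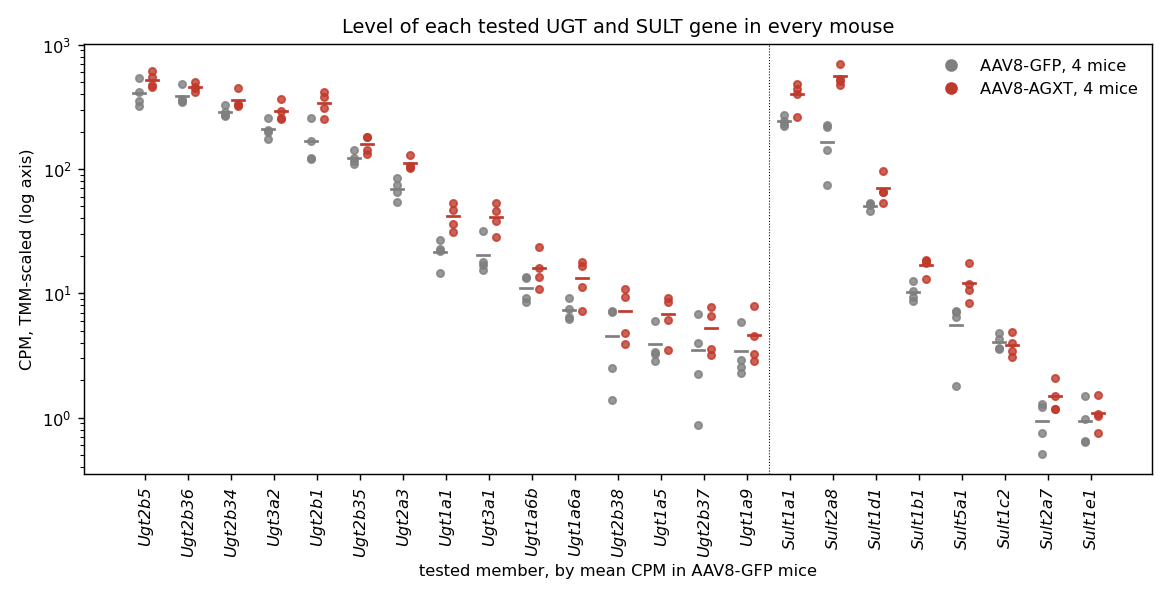
CPM scaled by TMM factors on a log axis (y axis) of each tested member (x axis, UGT genes left of the dotted line) in the 4 AAV8-GFP mice (grey) and the 4 AAV8-AGXT mice (red), with bars at the group means. Sult2a8 shows the widest gap, from at most 227 CPM in grey to at least 478 CPM in red, while the grey Sult1c2 points lie within the range of the red ones.

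Among the UGT genes, Ugt1a1, the enzyme that conjugates bilirubin, was higher in AAV8-AGXT livers. It lies at chr1:88211959-88218997 (plus strand) and was at 21.9, 14.7, 26.7 and 22.8 CPM in AAV8-GFP mice 303, 311, 314 and 315. In AAV8-AGXT mice 308, 309, 316 and 319 it was at 36.5, 47.2, 31.1 and 52.9 CPM. The lowest AAV8-AGXT mouse was above the highest AAV8-GFP mouse. The log2 fold change was 0.97 (SE 0.21, adjusted p = 0.0413), and over the 16 alternative fits the adjusted p ran from 0.00137 to 0.135. Of the 8 fits that left out a mouse, 1 called it, the fit without mouse 316. Ugt1a1 took 44.9 ± 4.08% of the Ugt1a counts in AAV8-GFP mice and 50.1 ± 2.61% with AAV8-AGXT (SD, n = 4 each).

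The other tested Ugt1a genes had positive log2 fold changes without passing the test. Ugt1a6a and Ugt1a6b, which conjugate small planar phenols, had log2 fold changes of 0.85 (7.36 to 13.2 CPM) and 0.53 (11.1 to 16.01 CPM). Ugt1a5 was at 0.82 (3.89 to 6.81 CPM). Ugt1a9, a phenol-conjugating form, was at 0.44 (3.42 to 4.63 CPM). The sum over the 9 Ugt1a genes, which leaves out read pairs that fit more than 1 of them, was 47.8 ± 9.68 CPM with AAV8-GFP and 83.1 ± 16.1 CPM with AAV8-AGXT (SD, n = 4 each). Its ranges, 35.4 to 55.9 and 64.5 to 98.2 CPM, did not overlap. Ugt1a7c reached at most 21 counts, Ugt1a2 4 and Ugt1a10 2, and Ugt1a8 was at 0 in every mouse.

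Ugt2a3, a form that acts on bile acids, was the other UGT gene that passed the test. It lies at chr5:87324972-87337195 (minus strand). It was at 73.8, 54.8, 65.1 and 83.9 CPM in AAV8-GFP mice 303, 311, 314 and 315 and at 105, 131, 102 and 106 CPM in AAV8-AGXT mice 308, 309, 316 and 319. The groups did not overlap. The log2 fold change was 0.68 (SE 0.15, adjusted p = 0.0388), with adjusted p between 0.00147 and 0.137 over the alternatives. It kept its call in 1 of the 8 fits that left out a mouse, the fit without mouse 315. Ugt2a1 and Ugt2a2, known from olfactory tissue, were at 0 in every mouse, but only 30 and 140 of their exon bases are not shared with each other or with the overlapping gene model Gm43638, which was also at 0. A level of these 2 genes was not detectable in this count.

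The Ugt2b genes, which conjugate steroids, bile acids and many drugs, made up most of the UGT counts. In each of the 7 the log2 fold change was positive, from 0.22 to 1.03, and none passed the edgeR test. Ugt2b5 had the highest level per kilobase of the 42 members, 219.9 CPM per kb in AAV8-GFP livers, followed by Ugt2b36 at 189 and Sult1a1 at 161. These neighbours overlap, with ranges over the 8 mice of 172 to 329.6, 169 to 242 and 148 to 323 CPM per kb.

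Ugt2b5 was at 419, 354, 320.4 and 541 CPM in AAV8-GFP mice 303, 311, 314 and 315 and at 612, 473, 547 and 458 CPM in AAV8-AGXT mice 308, 309, 316 and 319 (log2 fold change 0.36, SE 0.18, adjusted p = 0.246). Mouse 315 lay within the AAV8-AGXT range. Ugt2b36 was at 349, 368, 355 and 486 CPM against 499, 446, 456 and 416 CPM in the same order (0.22, SE 0.14, adjusted p = 0.342). Here too mouse 315 stood with the AAV8-AGXT mice, above 3 of them. Ugt2b34 was at 269, 271, 288 and 327 CPM against 333, 444, 329 and 323 CPM (0.31, SE 0.14, adjusted p = 0.200), and the groups overlapped by the values of 315 and 319.

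Ugt2b1 had the largest log2 fold change of the Ugt2b genes, 1.03 (SE 0.26), from 167 to 340.4 CPM, and took 11.8 ± 2.33% of the Ugt2b counts in AAV8-GFP mice and 18.3 ± 2.45% with AAV8-AGXT (SD, n = 4 each). It missed the test at an adjusted p of 0.0552. Its highest AAV8-GFP value, 257 CPM in mouse 315, was above its lowest AAV8-AGXT value, 251 CPM in mouse 319. Ugt2b35 was at 0.38 (122 to 159 CPM), Ugt2b38 at 0.65 (4.55 to 7.19 CPM) and Ugt2b37 at 0.60 (3.49 to 5.28 CPM), the last 2 with SE of 0.52 and 0.53. The sum of the near copies Ugt2b5, Ugt2b37 and Ugt2b38 was 417 ± 101 CPM against 535 ± 70.7 CPM (SD, n = 4 each), a ratio of 1.28.

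The Ugt3a genes use sugar donors other than UDP-glucuronic acid. Ugt3a1 had a log2 fold change of 1.02 (20.4 to 41.4 CPM, adjusted p = 0.0546) and Ugt3a2 one of 0.49 (209 to 294 CPM, adjusted p = 0.103). The summed level of the 21 UGT genes was 1731 ± 296 CPM with AAV8-GFP and 2376 ± 228 CPM with AAV8-AGXT (SD, n = 4 each). The highest AAV8-GFP sum, 2160.5 CPM, was above the lowest AAV8-AGXT sum, 2106 CPM.

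Sult2a8, a bile acid sulfotransferase of mouse liver, had the largest difference of all members. It lies at chr7:14410686-14446769 (minus strand). It was at 217, 142, 74.7 and 227 CPM in AAV8-GFP mice 303, 311, 314 and 315 and at 706, 478, 529 and 510.1 CPM in AAV8-AGXT mice 308, 309, 316 and 319. The lowest AAV8-AGXT mouse was above the highest AAV8-GFP mouse by more than the whole AAV8-GFP range. The mean rose 3.36-fold, and the log2 fold change was 1.75 (SE 0.31, adjusted p = 0.0304). The exact two-sided permutation test over the 70 arrangements of the mice gave p = 0.0286, the smallest p that 4 against 4 mice allow. Every gene whose groups do not overlap gets this p, so it adds nothing to the separation of the groups. Sult2a8 was called in 12 of 16 alternative fits, with adjusted p between 2.62e-06 and 0.126, and lost its call without mouse 311, 314, 308 or 319.

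The rest of the Sult2a cluster was almost silent in these male livers. Sult2a7 was at 0.94 and 1.48 CPM (log2 fold change 0.65, not called). Sult2a1, the main hydroxysteroid form of female mouse liver, reached at most 4 counts and Sult2a2 at most 2. Sult2a3, Sult2a4, Sult2a5 and Sult2a6 were at 0 in every mouse. A count of 0 allows up to 3 counts, which is between 0.0918 and 0.207 CPM in these libraries and covers counting error only.

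In the Sult1 family, Sult1b1, which sulfonates thyroid hormones, passed the test. It lies at chr5:87513339-87538195 (minus strand). It was at 10.3, 8.72, 12.5 and 9.26 CPM in AAV8-GFP mice 303, 311, 314 and 315 and at 18.6, 18.2, 17.5 and 13.1 CPM in AAV8-AGXT mice 308, 309, 316 and 319. The groups were separate, with mouse 319 nearest to the AAV8-GFP mice. The log2 fold change was 0.72 (SE 0.16, adjusted p = 0.0425), and it lost its call whichever mouse was left out, with adjusted p between 0.0617 and 0.149 in those fits.

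Sult1a1, the main phenol sulfotransferase of liver, missed the test. It was at 246, 231, 269.8 and 224 CPM in AAV8-GFP mice 303, 311, 314 and 315 and at 486, 264, 403 and 443 CPM in AAV8-AGXT mice 308, 309, 316 and 319 (log2 fold change 0.72, SE 0.18, adjusted p = 0.0554). Mouse 309 alone lay in the range of the AAV8-GFP mice, and without it the adjusted p was 0.0226. Sult1d1, which acts on catecholamines, was at 52.3, 45.8, 51.6 and 53.1 CPM against 65.6, 97.1, 65.7 and 52.8 CPM (0.47, SE 0.17, adjusted p = 0.116). Mouse 319 lay within the AAV8-GFP range.

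Sult1e1, the estrogen sulfotransferase, was low at 0.94 and 1.09 CPM (log2 fold change 0.21). Sult1c2 was the only tested member with a negative log2 fold change, -0.08 (4.07 and 3.85 CPM), and its sign turned positive without mouse 315 (0.01) or without mouse 319 (0.03). Sult1c1 was at 0 in every mouse. The 6 Sult1 genes summed to 308 ± 22.3 CPM and 491 ± 79.6 CPM (SD, n = 4 each), with no overlap between 338 CPM, the highest AAV8-GFP sum, and 384 CPM, the lowest AAV8-AGXT sum.

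Sult5a1, a member with no well-known substrate, was at 7.15, 6.46, 1.80 and 7.01 CPM in AAV8-GFP mice 303, 311, 314 and 315 and at 17.5, 10.6, 8.42 and 11.8 CPM in AAV8-AGXT mice 308, 309, 316 and 319. The groups did not overlap, mouse 314 was the lowest, and the adjusted p was 0.110 (log2 fold change 1.10, SE 0.38). Without mouse 314 the log2 fold change was 0.79 (adjusted p = 0.127). Of the SULT genes known from other tissues, Sult2b1, the cholesterol sulfotransferase of skin, gave 29, 27, 14 and 9 counts in AAV8-GFP mice and 1, 3, 8 and 7 counts in AAV8-AGXT mice. It was under the filter on low counts. In an edgeR fit without the filter its log2 fold change was -1.55 (SE 0.53, unadjusted p = 0.00908, adjusted p = 0.124). It overlaps Lmtk3 and Gm31597 on the opposite strand, so without strand their reads cannot be told apart. Lmtk3 itself had a log2 fold change of -1.46 (SE 0.42, adjusted p = 0.072), and its groups did not overlap. Sult4a1, a brain form, reached 10 counts, Sult6b1 6 and Sult3a1 1, and Sult3a2 and Sult6b2 were at 0.

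All 21 SULT genes summed to 481 ± 61.9 CPM with AAV8-GFP and 1061 ± 176 CPM with AAV8-AGXT (SD, n = 4 each), a ratio of 2.20, and without Sult2a8 to 316 ± 20.1 and 505 ± 82.0 CPM, a ratio of 1.598. Sult2a8 took 33.3 ± 11.3% of the SULT counts in AAV8-GFP livers and 52.3 ± 2.60% in AAV8-AGXT livers, while the share of Sult1a1 was 51.3 ± 9.96% and 37.3 ± 5.27% (SD, n = 4 each). These are shares of read pairs, which grow with the length of a gene. Per kilobase of exon, Sult1a1 stayed above Sult2a8 in the group means, at 161 against 50.3 CPM per kb in AAV8-GFP livers and at 265 against 169 CPM per kb in AAV8-AGXT livers. In bulk tissue, fewer cells of a type and less RNA per cell cannot be told apart.

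**Figure D4:**
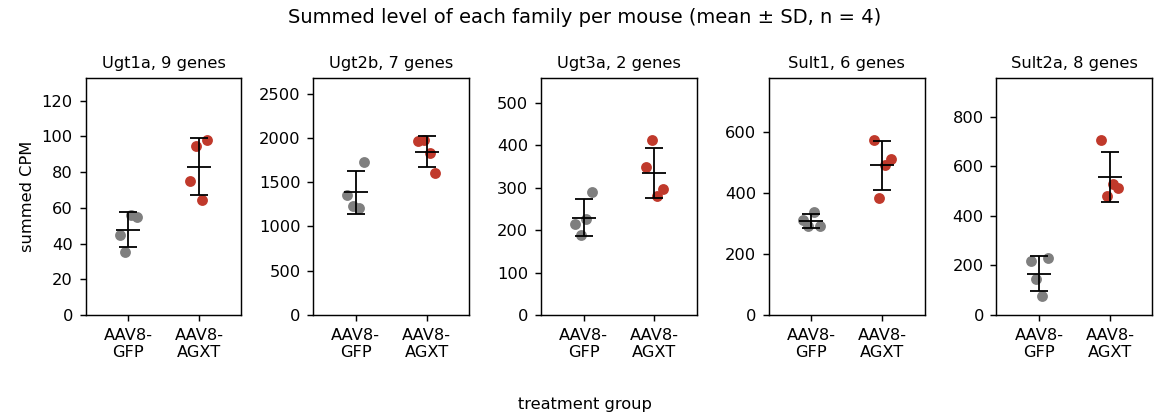
Summed CPM (y axis, from 0) of 5 families in each mouse by treatment group (x axis), grey for AAV8-GFP and red for AAV8-AGXT, with mean ± SD in black (n = 4). The Ugt1a, Sult1 and Sult2a sums do not overlap between the groups, and the Ugt2b and Ugt3a sums do.

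The scaling between libraries bears on the whole family. TMM factors were 1.02 to 1.14 in AAV8-GFP mice and 0.83 to 1.00 in AAV8-AGXT mice. With total counts and no such factor, the median log2 fold change of all tested genes moved to -0.22. The member median was then 0.40, 20 of 23 members were positive, only Sult2a8 was called, and Sult1e1 (-0.03) and Ugt2b36 (-0.01) turned negative beside Sult1c2. As a share of all counted read pairs, with no scaling, the 42 members made up 0.217% to 0.274% in AAV8-GFP mice and 0.278% to 0.340% in AAV8-AGXT mice, without overlap.

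With 22 of 23 tested members positive, members next to each other on the genome could hardly differ in sign, so a shared sign says nothing of a cluster. The cluster at chr5:86889767-87591594 holds 13 members over 701.8 kb, 10 UGT genes followed by the SULT genes Sult1b1, Sult1d1 and Sult1e1. Log2 fold changes were positive in all 11 that were tested, from 0.21 for Sult1e1 to 1.03 for Ugt2b1. The called genes Ugt2a3 and Sult1b1 both lie here, with Ugt2b38, Ugt2a2 and Ugt2a1 between them.

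Sequence before the start site was read for the called genes from RefSeq, whose promoter table (GRCm38.p6) held 36 of the 42 members and 20 of the 23 tested ones. The 250 bases before the start are printed for the 3 called genes whose RefSeq and GENCODE starts coincide, Ugt1a1 at chr1:88211709-88211958 (plus strand), Ugt2a3 at chr5:87337196-87337445 (minus strand) and Sult1b1 at chr5:87538196-87538445 (minus strand). Capitals mark the letters GTTAAT or ATTAAC (a half-site of hepatocyte nuclear factor 1), AGGTCA or TGACCT (a half-site of nuclear receptors) and TATAAA or TTTATA (the TATA box), searched on both strands.
Ugt1a1: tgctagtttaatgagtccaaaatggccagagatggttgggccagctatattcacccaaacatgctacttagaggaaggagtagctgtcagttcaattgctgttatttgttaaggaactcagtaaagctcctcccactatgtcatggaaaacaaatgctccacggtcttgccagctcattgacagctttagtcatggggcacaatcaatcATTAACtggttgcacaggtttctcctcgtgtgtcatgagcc
Ugt2a3: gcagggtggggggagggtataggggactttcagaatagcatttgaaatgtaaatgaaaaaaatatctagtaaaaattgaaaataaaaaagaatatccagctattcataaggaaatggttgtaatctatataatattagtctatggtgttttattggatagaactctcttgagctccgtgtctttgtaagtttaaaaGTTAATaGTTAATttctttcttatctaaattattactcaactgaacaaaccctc
Sult1b1: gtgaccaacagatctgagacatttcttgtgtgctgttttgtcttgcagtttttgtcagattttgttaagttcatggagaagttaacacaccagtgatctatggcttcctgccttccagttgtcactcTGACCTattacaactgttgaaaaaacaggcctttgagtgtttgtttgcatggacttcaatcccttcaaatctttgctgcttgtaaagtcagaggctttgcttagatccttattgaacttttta
The hepatocyte nuclear factor 1 letters begin 41 bases before the start of Ugt1a1, and 54 and 47 bases before that of Ugt2a3, side by side. The same 250 bases held these letters in 7 of the 20 tested members and in 6.43% of 32851 mouse promoters. Ugt3a1 is among the 7, although its RefSeq start lies 2941 bases from its GENCODE start. AGGTCA or TGACCT stood in 8 of the 20, 5 of them Ugt2b genes, and in 14.0% of all promoters. In Ugt2b5, Ugt2b36, Ugt2b37 and Ugt2b38 the letters lay in the same stretch, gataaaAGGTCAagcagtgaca, so their matches are not separate from each other. The TATA letters stood in 2 of the 20, Ugt3a1 and Sult2a8, and in 12.4% of all promoters. The RefSeq start of the fourth called gene, Sult2a8, lies 182 bases from its GENCODE start. The 250 bases before it held only the TATA letters, 223 bases before the start. All of these are matches of letters and say nothing of binding.

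The enzymes that make the sugar and sulfonate donors were listed with other genes of donor supply and turnover, and the transporters and regulators of the pathway were listed apart. Calls on these genes rest on as few mice as those on the members, since without mouse 311 no more than 2 of all tested genes were higher and 0 were lower. The list around UDP-glucuronic acid holds 8 genes, among them Gusb, which cleaves glucuronides, and Ugt8a, which uses UDP-galactose. None of the 8 passed the test, and 3 were above 0 (median log2 fold change -0.11). The smallest p-values there were those of Pgm1 (0.53, adjusted p = 0.0578), Pgm2 (-0.66), Slc35b1 (-0.33) and Ugt8a (-0.70). Of 11 tested genes for PAPS supply and sulfate turnover, a list that includes the protein sulfotransferases Tpst1 and Tpst2, 1 was higher, Suox, the sulfite oxidase that makes sulfate (0.52, SE 0.10, adjusted p = 0.0341). Bpnt1 (0.39), Slc26a1 (0.45) and the PAPS synthase Papss2 (0.35) did not pass, nor did Papss1 (-0.63).

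Transporters gave more calls. Over all tested genes, 2.45% were higher and 1.90% lower. Of 12 transporters tested, 4 were higher and none lower, with a median log2 fold change of 0.50. They were the bile acid carrier Slc10a1 (0.96, SE 0.15, adjusted p = 0.0246) and the organic anion carriers Slco1b2 (0.75, adjusted p = 0.0304), Slco2b1 (0.53, adjusted p = 0.0446) and Slco1a1 (1.78, adjusted p = 0.0456). All 4 take up compounds from blood. Among genes of heme and bilirubin handling 2 of 9 were higher, Slco1b2 again and Alas1, which starts heme synthesis (1.26, SE 0.26, adjusted p = 0.0366). Hmox2 (0.42) and Gsta1 (-2.13) did not pass.

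Of 18 receptors and transcription factors known to act on UGT and SULT genes, 2 were higher and none lower. They were Ppara, the fatty acid receptor (0.89, SE 0.19, adjusted p = 0.0376), and Cebpa (0.50, SE 0.11, adjusted p = 0.0429). Rxra, the partner of many nuclear receptors, was just outside (0.67, adjusted p = 0.0502), and Nr1i3, the receptor CAR, had a log2 fold change of 1.43 with an SE of 0.37 (adjusted p = 0.0599). Median log2 fold change was 0.40.

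Other phase II enzymes moved in both directions. Of 15 tested, Ephx2, the soluble epoxide hydrolase, was higher (0.82, adjusted p = 0.0465), and the glutathione transferases Gstm3 (-2.14, adjusted p = 0.0363) and Gstm1 (-0.74, adjusted p = 0.0493) were lower. Nnmt was at 1.41 and did not pass. The median was -0.04, against 0.65 for the UGT and SULT members.

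**Figure D5:**
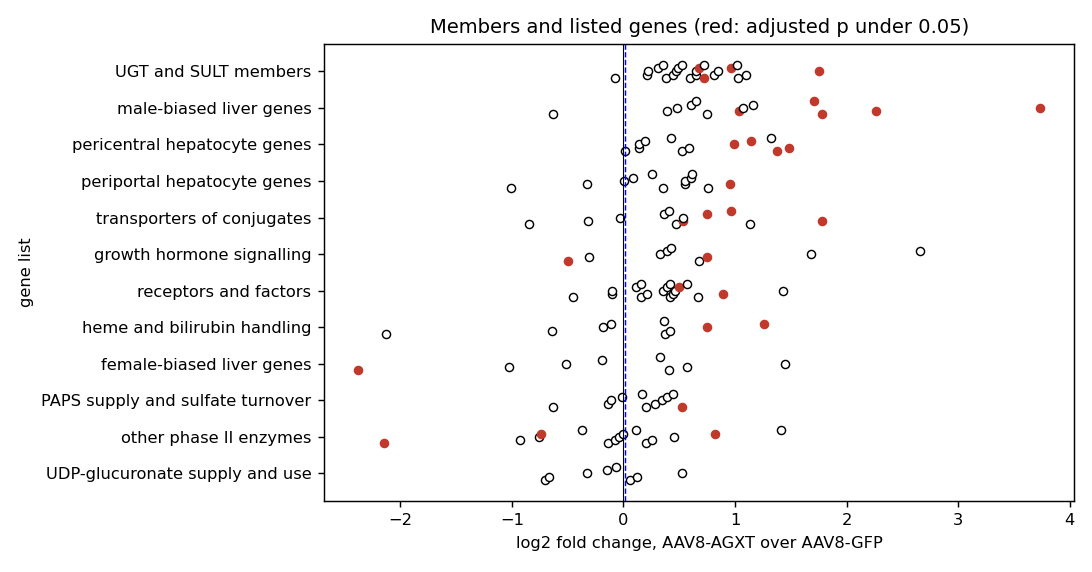
Log2 fold change of AAV8-AGXT over AAV8-GFP (x axis) of each tested gene in the UGT and SULT families and in 11 gene lists (y axis), 1 point per gene, red where the adjusted p was under 0.05, with the median of all tested genes as a dashed line. Of the members 22 of 23 lie above 0, as do 12 of 12 pericentral and 10 of 12 periportal genes. Above 0 are 12 of 13 male-biased and 4 of 8 female-biased genes. So are 15 of 18 receptors and factors, 9 of 12 transporters and 3 of 8 genes of the UDP-glucuronate list.

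Several members are known to differ between the sexes or between zones of the liver lobule, and genes of those programmes moved beside them. Of 13 male-biased genes 5 were higher and none lower (median 1.04): Hsd3b5 (3.73), Cyp7b1 (1.71), Slco1a1 (1.78), Serpina1e (2.26) and C8b (1.04), with adjusted p between 0.0341 and 0.0489. Slco1a1 was counted among the transporters too. Of 8 tested female-biased genes Cyp2a4 was lower (-2.38, adjusted p = 0.0375), and Prom1 (-1.03), Acot3 (1.45) and Abcd2 (-0.52) did not pass. In that list 4 genes were above 0 and 4 below (median 0.07), so it had no common direction. Of 9 genes of growth hormone signalling, which sets the sex bias, Igfals was higher (0.75, adjusted p = 0.0374) and Stat5a lower (-0.50, adjusted p = 0.0341). Ghr was at 0.43 and Onecut1 at 2.66, and neither passed. The Onecut1 value rests on mouse 309, at 57.2 CPM, with 1.38, 6.88 and 5.47 CPM in AAV8-AGXT mice 308, 316 and 319.

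Pericentral genes were higher in 4 of 12 cases (median 0.55): Cyp2e1 (1.15, adjusted p = 0.0198), Oat (1.48), Slc1a2 (1.37) and Lhpp (0.99). Of 12 periportal genes 1 was higher, Cps1 of the urea cycle (0.96, adjusted p = 0.0279), with a median of 0.45. Serpina1b (0.61), Cdh1 (-1.005) and Hal (0.75) did not pass. Genes of both zones thus had positive medians, as the members did. The part of these programmes in the differences of the members was not tested.

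Of the markers of other liver cell types, those of cholangiocytes, stellate cells, lymphocytes and neutrophils mostly had negative log2 fold changes, and those of macrophages and endothelial cells did not. All 7 cholangiocyte markers were below 0 (median -1.13) and none was called, among them Spp1 (-1.62), Sox9 (-0.91), Krt7 (-1.36) and Epcam (-1.34). Their summed level was 253 to 712 CPM in AAV8-GFP mice and 106 to 302 CPM in AAV8-AGXT mice. Of 8 stellate cell and fibroblast markers 6 were below 0 (median -0.59), and 1 was called lower, Acta2 (-0.99, adjusted p = 0.0427). Col1a1 was at -1.77, Col3a1 at -1.37 and Des at -0.50, while Dcn was at -0.15, Lrat at 0.11 and Reln at 0.22. Their sum was 489.8 to 842 CPM and 246 to 576 CPM.

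None of the immune and endothelial markers was called. Macrophage markers summed to 360.3 to 594 CPM and 199 to 668 CPM in the 2 groups, and 4 of 8 were above 0 (median 0.0074). Timd4 was at 2.49, Clec4f at 0.45, Adgre1 at 0.13, Vsig4 at 0.04, Cd5l at -0.02, Trem2 at -1.42, Cd68 at -1.001 and Gpnmb at -1.03. For Timd4 mouse 319 was at 13.6 CPM, and AAV8-AGXT mice 308, 309 and 316 were at 3.04, 2.04 and 1.34 CPM. Lymphocyte markers summed to 14.3 to 21.2 CPM and 7.25 to 15.3 CPM, and 6 of 8 tested were below 0 (median -0.67). Cd8a was at -2.06, Cd3g at -0.93, Nkg7 at -0.83 and Cd3e at -0.85, and those above 0 were Cd4 at 0.35 and Ms4a1 at 0.55. Neutrophil markers summed to 20.3 to 32.3 CPM and 6.83 to 21.8 CPM, and the 3 tested were Csf3r at -0.89, S100a9 at -0.79 and S100a8 at -0.69. Endothelial markers summed to 135 to 199.7 CPM and 139 to 251 CPM, and 6 of 7 were above 0 (median 0.22), with Kdr at 0.60, Cdh5 at 0.25, Clec4g at 0.34 and Vwf at -0.26.

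Hepatocyte markers had positive log2 fold changes in 7 of 7 cases (median 0.45). Cps1, which is also in the periportal list, was the only call, and Serpina1a was at 0.58, Apoa1 at 0.45 and Alb at 0.34. Their sum was 46410 to 56311 CPM in AAV8-GFP mice and 55703 to 77825 CPM in AAV8-AGXT mice. Of the markers of pancreas, fat, intestine and kidney, Lep, Amy2a2, Prss1, Ins2, Slc12a1 and Kap were at 0 in every mouse, and those tested, Vil1 (-1.73), Fabp2 (0.40), Cela1 (-0.26) and Lrp2 (1.41), did not pass. The part of cell composition in the differences of the members was not tested.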

How the data were processed

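The authors isolated liver RNA, prepared stranded mRNA libraries and sequenced them as read pairs. According to their methods, reads of 76 bases lost the first 9 bases and low-quality ends with Trimmomatic 0.35, were aligned to GRCm38 (Ensembl release 90 gene models) by HISAT2 2.1.0.13, and were tallied per gene by HTSeq. The deposited values are the raw counts per gene and mouse from these steps. The strand setting and overlap mode of the counting are not given in the sources used here. Multi-mapped and ambiguous read pairs are in none of the gene counts. Genes are not separate in a count where they share exons or near-identical sequence.

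Gene symbols came from GENCODE M21 (Ensembl release 96), which matched 52489 of 52636 genes. The fit used edgeR 4.0.16 in R 4.3.3 with genes kept by filterByExpr, TMM factors, a quasi-likelihood test and no covariate beside treatment, and p-values of all 15248 tested genes were adjusted together by Benjamini-Hochberg. DESeq2 1.42.0 and limma-voom (limma 3.58.1) were alternatives, with other scalings, other filters on low counts and each mouse left out. Fold changes are log2 values with a prior count of 0.125. Standard errors are the coefficient without shrinkage divided by the root of F. The fit was tested on simulated data. At 17095433 to 28780140 counts per mouse, the spread between mice (a common biological coefficient of variation of 23.3%) limits precision more than counting does, except in genes with few counts.

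Exon bases shared between genes, 67-base windows shared between transcripts, and sequences were taken from GENCODE M21 and, before start sites, from RefSeq. Per-mouse values were given for members with an adjusted p under 0.05 or groups that did not overlap and for the 3 most abundant UGT and SULT genes, with group means and log2 fold changes for the others. The genes named from each list were those called and the 4 with the smallest p. The members, lists and tests were chosen with earlier results of these data known. Each library was 1 mouse, and mice were numbered as in the labels.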

Additional observations from a re-analysis of the deposited data

Results flagged for a closer look

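A single mouse stood far from the 3 others of its group in 7 of the 46 groups of 4 values examined (23 members in 2 treatments), measured as its gap to the nearest value over the range of the group (Dixon's ratio, above its 95% critical value). Chance alone flags about 1 in 20 groups, and members in the same mouse are not independent.

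Among AAV8-GFP mice, Sult5a1 was low in mouse 314 (1.799 CPM, the next value 6.459) and Ugt1a5 was high in the same mouse (6.043 CPM, the next 3.358). Mouse 315 was high for Ugt1a9 (5.91 CPM, the next 2.906), Ugt2b36 (485.9 CPM, the next 368.1) and Ugt3a1 (31.58 CPM, the next 17.94).

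Among AAV8-AGXT mice, mouse 309 was high for Ugt2a3 (130.8 CPM, the next 106.2) and Ugt2b34 (444.4 CPM, the next 332.8).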

How the results depend on the processing

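The number of members called higher, 4 with edgeR and TMM factors, was 10 with DESeq2, 7 with no filter on low counts and 1 with total counts and no composition factor. With each mouse left out it ran from 0 to 4. It stayed within 1.5 times of 4 with limma-voom (6), robust estimation (4), DESeq2 size factors (4), upper-quartile scaling (3) and at least 10 counts in every mouse (4). No fit called a member lower. With total counts, Sult1e1 (-0.027) and Ugt2b36 (-0.011) changed sign, and the log2 ratio of summed CPM moved to 0.23 for UGT, 0.89 for SULT, 0.19 for Ugt2b and 0.42 for Sult1 genes, from 0.46, 1.14, 0.42 and 0.67. That scaling moved the median of all tested genes to -0.22. Sult1c2 ran from -0.22 to 0.025 over the mice left out and was never called. No paired analysis was possible because mice of the 2 groups share no replicate number. At this depth the 10 members at 0 in every mouse could be present at up to 3 counts. Counts of Ugt1a genes rest on at most 49.7% of their exon bases on their own strand. Those of Ugt2b5, Ugt2b37 and Ugt2b38 leave out read pairs that align equally well to more than 1 of them.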
